A study of Mus musculus with 6 samples.

Results

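The synaptic vesicle release genes examined here are 10 genes: Snap25, Stx1a, Vamp1, Vamp2, Syt1, Syt2, Syn1, Syn2, Slc17a6 and Slc17a7. They were taken by gene symbol from the 55450 genes counted in each library, each symbol matched a single GENCODE M21 gene, and all 10 passed the filter on low counts, as did 21237 genes in all. RNA came from whole mouse brain of 3 animals labelled TRMT1L KO and 3 labelled WT. TRMT1L is a protein related to the tRNA methyltransferase TRMT1, and the libraries hold total RNA longer than 200 bp. Sex, age, strain, litter and the way the KO allele was made are not given in the sources used here, and no agent or treatment beyond the genotype is named. The labels call the samples biological triplicates.

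Chemical synapses release transmitter when a vesicle fuses with the plasma membrane. The vesicle SNARE protein (VAMP) zips together with syntaxin and SNAP-25 on the plasma membrane, and synaptotagmin on the vesicle senses the calcium that triggers fusion. Synapsins tether the reserve of vesicles, and the vesicular glutamate transporters fill vesicles with glutamate. In the rodent brain Slc17a7 and Slc17a6 are largely complementary, with Slc17a7 in cortex, hippocampus and cerebellar granule cells and Slc17a6 in thalamus, hypothalamus and brainstem, while Vamp1 and Syt2 are enriched in brainstem and other fast-firing circuits relative to Vamp2 and Syt1.

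Counts in genes ranged from 31201119 to 36145961 per library. Trmt1l, the targeted gene, had 1034 to 1279 counts in the WT libraries and 93 to 106 in the KO libraries, so the genotype labels and the counts ran the same way. Of the 21237 genes tested, 2 passed at an adjusted p-value under 0.05 (edgeR, quasi-likelihood, p-values adjusted by Benjamini-Hochberg). WT library 3 and KO library 1 stood apart from the others in brainstem markers, which are described after the members, and the calls were recomputed without these libraries. Left out together, 0 of the 10 members passed, as with all 6. With fewer libraries the test has less power, so this count cannot show that the members are unchanged.

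Each member lies on GRCm38 as a protein-coding gene. Snap25 (ENSMUSG00000027273.13) spans chr2:136713453-136782428 on the plus strand, and Stx1a (ENSMUSG00000007207.10) spans chr5:135023482-135051100 on the plus strand. Vamp1 (ENSMUSG00000030337.16) spans chr6:125215551-125245964 and Vamp2 (ENSMUSG00000020894.16) spans chr11:69088490-69092384, both on the plus strand. Syt1 (ENSMUSG00000035864.14) is the longest locus, chr10:108497650-109010982 on the minus strand, and Syt2 (ENSMUSG00000026452.15) spans chr1:134646677-134762593 on the plus strand. Syn1 (ENSMUSG00000037217.15) is X-linked, at chrX:20860511-20921004 on the minus strand, and Syn2 (ENSMUSG00000009394.13) spans chr6:115134902-115282006 on the plus strand. Slc17a7 (ENSMUSG00000070570.5, chr7:45163949-45176142) and Slc17a6 (ENSMUSG00000030500.6, chr7:51622006-51671119) lie on the plus strand of the same chromosome.

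None of the 10 genes shares exon bases with another gene on its own strand. Timp4 lies on the other strand within Syn2 and overlaps 90 bases of its exons, and Araf overlaps 9 exon bases of Syn1. Reads were counted by strand, and in every library the opposite strand held at most 1.18% of the counts on both strands for any member, with Syt2 the highest. Counting without regard to strand kept between 85.5% and 87.7% of the stranded counts of Syn2 and between 96.0% and 96.7% of those of Syn1, and between 100.01% and 101.2% for each of the other 8. On the opposite strand 7 of the 10 members had enough counts to test, and 0 passed (edgeR), where 0.0278% of 10787 genes did. Slc17a7 alone had an unadjusted p-value under 0.05 there (0.0493, edgeR adjusted p 0.861), against 5.75% of genes, with 12, 9 and 19 such counts in WT against 10, 8 and 5 in KO.

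Bases upstream of the start are shown for the synapsin pair because Syn1 is a standard example of a neuron-restricted promoter, while its paralogue encodes a protein of the same role. The bases come from RefSeq windows on GRCm38.p6 and end at the annotated start of each gene. Capitals mark exact matches to the cAMP response element TGACGTCA and to TTCAGCACC, the left part of the RE1 element at which the repressor REST binds, both searched on both strands without overlapping each other. The Syn1 bases are chrX:20921005-20921168 on the minus strand and the Syn2 bases are chr6:115134738-115134901 on the plus strand.
Syn1: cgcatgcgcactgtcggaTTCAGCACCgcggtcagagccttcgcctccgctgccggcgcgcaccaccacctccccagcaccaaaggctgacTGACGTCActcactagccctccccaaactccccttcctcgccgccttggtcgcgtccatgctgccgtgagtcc
Syn2: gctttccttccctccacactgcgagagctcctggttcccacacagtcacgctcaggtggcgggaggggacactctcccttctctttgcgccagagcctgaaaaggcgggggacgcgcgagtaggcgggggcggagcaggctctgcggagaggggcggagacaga
Over the full RefSeq windows, 250 bases before to 50 after a start, 1.79% of 32851 windows hold TGACGTCA and 0.371% hold TTCAGCACC. The table has 12 windows for 8 members (Snap25 and Vamp2 have no entry), and 1 of the 12, that of Syn1, holds each motif. A match is a description of these letters only.

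The level of each gene was first compared per length, as CPM (counts relative to the library's total, scaled with TMM factors) per kb of merged exons, averaged over the 6 libraries. Snap25 was the highest at 244.4, followed by Vamp2 at 186.4, Syt1 at 130.1, Syn1 at 123.8 and Slc17a7 at 95.5 CPM per kb. Syn2 (48.7), Stx1a (31.7), Syt2 (29.7), Vamp1 (19.9) and Slc17a6 (15.6 CPM per kb) followed. The library ranges of neighbours in this order overlapped for Syt1 and Syn1 (125.3 to 134.1 against 113.1 to 128.8) and for Stx1a and Syt2 (28.4 to 34.7 against 27.8 to 31.9), and for no other neighbours. Vamp1 has 10167 merged exon bases but 3011 in its longest CCDS transcript, and on that length its mean was 67.3 CPM per kb, which placed it seventh, above Stx1a and Syt2. Slc17a7 (176.7 CPM per kb) stood above Syn1 (125.2 CPM per kb) on that length.

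Between genotypes, none of the 10 genes passed the test (edgeR's quasi-likelihood test, adjusted p-values from 0.628 to 0.999), where 0.00942% of all genes tested did. None had an unadjusted p-value under 0.05 in this fit, against 7.92% of all genes, while 11 of the 16 alternative settings put 1 or 2 members there, Snap25 among them in 8. DESeq2 also called 0 members, where it called 0.281% of the genes it adjusted, with 0 members at an unadjusted p-value under 0.05, and limma-voom called 0, with Snap25 and Slc17a7 at an unadjusted p-value under 0.05. The median log2 fold change of the 10 genes was 0.0011, beside 0.00013 over all genes tested, with 5 higher and 5 lower in KO (Vamp2, close to 0, was the sixth lower one with total-count scaling). The 95% intervals of the KO level all lay between 0.848 and 1.14 times the WT level. KO and WT libraries were fully separated for 2 of the 10, against 14.4% of all genes tested: Snap25 with KO below WT, as in 6.97% of genes, and Slc17a7 with KO above WT, as in 7.46%. In bulk RNA, fewer nerve cells of a type and less RNA per cell cannot be told apart.

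**Figure D1:**
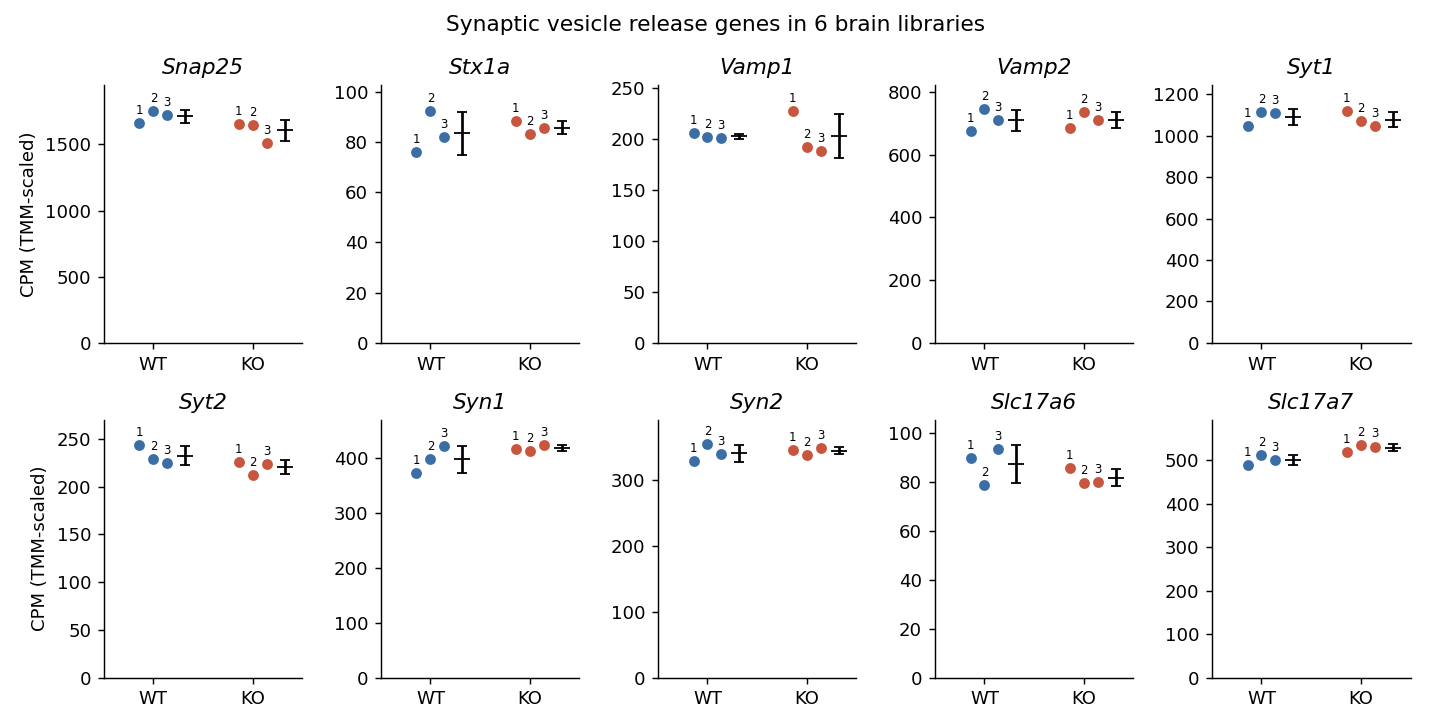
CPM of the 10 genes in the 3 WT (blue) and 3 KO (red) libraries, with the library number above each point and the mean ± SD beside each group; every axis starts at 0. All groups overlap except those of Snap25, whose KO libraries lie below WT, and Slc17a7, whose KO libraries lie above WT.

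The SNARE proteins come first. Snap25, the plasma membrane SNARE held by a palmitoylated linker, had 1663, 1756 and 1721 CPM in WT libraries 1 to 3 and 1657, 1646 and 1514 CPM in KO libraries 1 to 3. All 3 KO libraries lay below all 3 WT libraries, though WT library 1 and KO library 1 were nearly equal and KO library 3 was the lowest. The log2 fold change was -0.09 (SE 0.043, 95% interval -0.19 to 0.0013), with an edgeR adjusted p of 0.628, and it was -0.05 without KO library 3.

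Stx1a, a syntaxin that pairs with Snap25 on the plasma membrane, had 75.8, 92.5 and 81.9 CPM in WT and 88.4, 83.2 and 85.5 CPM in KO. The KO values fell inside the WT range, and the log2 fold change was 0.04 (SE 0.067).

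Vamp2, the main vesicle SNARE of the forebrain, had 675.4, 743.8 and 708.7 CPM in WT and 685.7, 736.2 and 710.0 CPM in KO. The libraries of the 2 genotypes interleaved, and the log2 fold change was 0.0027 (SE 0.046). Vamp1, its relative, had 205.6, 201.7 and 201.0 CPM in WT and 227.6, 192.5 and 187.9 CPM in KO. KO library 1 was the highest of the 6 and the other KO libraries were the lowest, so the group means were 202.7 ± 2.50 and 202.7 ± 21.7 CPM (SD, n = 3). The log2 fold change of Vamp1 was -0.00058 (SE 0.065), and it was -0.10 with WT library 3 and KO library 1 left out (edgeR adjusted p = 0.752).

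Among the calcium sensors, Syt1, the synaptotagmin of most forebrain synapses, had 1047, 1113 and 1111 CPM in WT and 1118, 1072 and 1045 CPM in KO. Its groups overlapped fully, with a log2 fold change of -0.02 (SE 0.041). Syt2, a faster relative, had 244.0, 228.7 and 225.0 CPM in WT and 225.4, 212.3 and 223.8 CPM in KO. WT library 1 was the highest and KO library 2 the lowest, and KO library 1 lay just above WT library 3. The log2 fold change of Syt2 was -0.08 (SE 0.046, 95% interval -0.18 to 0.025), and -0.12 without WT library 3 and KO library 1 (edgeR adjusted p = 0.752).

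The synapsins coat vesicles and hold them in the reserve pool. Syn1 had 373.2, 398.2 and 422.7 CPM in WT and 417.1, 413.8 and 425.1 CPM in KO. The KO libraries sat close together near the top of the WT range, and the log2 fold change was 0.07 (SE 0.048), or 0.12 without WT library 3 and KO library 1 (edgeR adjusted p = 0.735). Syn2 had 328.4, 354.9 and 339.3 CPM in WT and 345.6, 338.9 and 349.4 CPM in KO. Syn2 had the smallest spread of the 10 genes, a coefficient of variation of 2.71% over the 6 libraries, and a log2 fold change of 0.02 (SE 0.042).

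The vesicular glutamate transporters differed in opposite directions, neither past the threshold. Slc17a7 (VGLUT1) had 488.8, 513.1 and 500.1 CPM in WT and 520.3, 535.6 and 531.9 CPM in KO. Every KO library lay above every WT library, and the log2 fold change was 0.08 (SE 0.038, 95% interval -0.0035 to 0.16, edgeR adjusted p = 0.634). Slc17a6 (VGLUT2) had 89.8, 78.6 and 93.2 CPM in WT and 85.5, 79.5 and 79.9 CPM in KO. WT library 2 was below all KO libraries and the other WT libraries were above them, so the groups overlapped. The log2 fold change of Slc17a6 was -0.10 (SE 0.065), or -0.16 without WT library 2 and -0.04 without WT library 3, and its spread over the 6 libraries, 7.23%, was the widest of the 10.

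**Figure D2:**
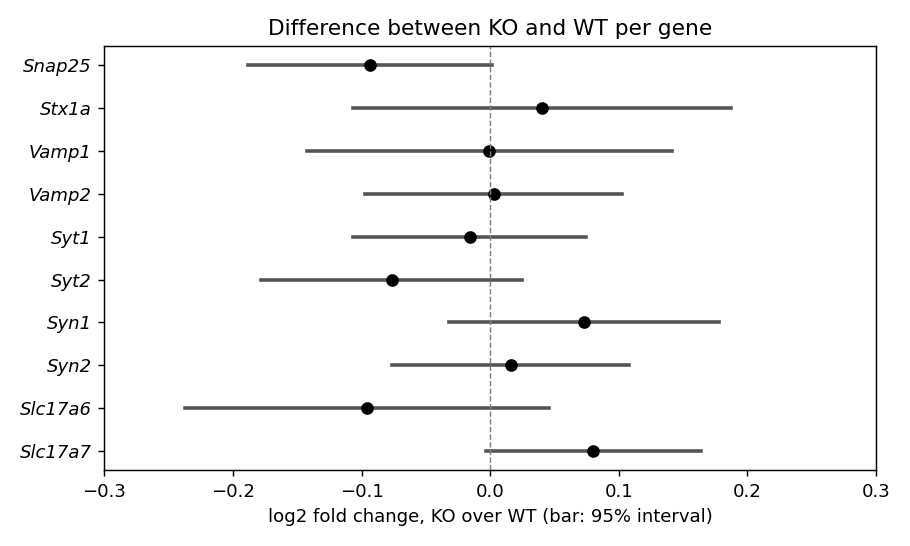
Log2 fold change of KO over WT for each gene (point) with its 95% interval (bar) from edgeR's quasi-likelihood fit. Every interval includes 0, and the intervals of Snap25 and Slc17a7 end closest to it, at 0.0013 and -0.0035.

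Because these genes come in related pairs with different distributions in the brain, the balance within a pair was compared per library as a log2 ratio of CPM. Such a ratio does not depend on library scaling, and it is not corrected for length, so only its change between libraries is read. Slc17a6 over Slc17a7 was 0.184, 0.153 and 0.186 in WT and 0.164, 0.148 and 0.150 in KO. The mean log2 ratio was -2.53 ± 0.158 in WT and -2.70 ± 0.0801 in KO (SD, n = 3), a difference of -0.17 (exact permutation test, two-sided, p = 0.2, adjusted over 5 pairs 0.833). The difference was larger than the SD of either group, but WT library 2 lay inside the KO range and the test did not pass. It was -0.26 without WT library 2 and -0.12 without WT library 3.

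The other 3 pairs reported differed by less. Vamp1 over Vamp2 was 0.304, 0.271 and 0.284 in WT and 0.332, 0.261 and 0.265 in KO, a log2 difference of -0.0090 (exact permutation p = 1). KO library 1 again had the highest share of Vamp1, and without it and WT library 3 the difference was -0.13. Syt2 over Syt1 differed by -0.06 (exact permutation p = 0.5) and Syn1 over Syn2 by 0.06 (p = 0.4, exact). In Syn1 over Syn2 the KO libraries were nearly identical, at 1.21, 1.22 and 1.22, against 1.14, 1.12 and 1.25 in WT. With 3 libraries against 3 the exact test cannot give a p below 0.1.

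**Figure D3:**
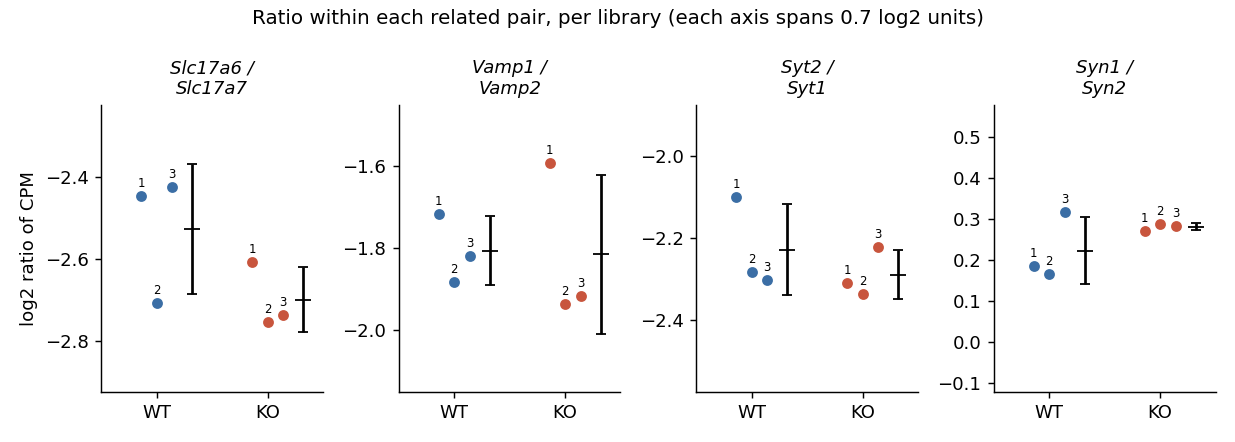
Log2 ratio of CPM within 4 related pairs in the WT (blue) and KO (red) libraries, numbered by library, with the mean ± SD beside each group; each axis spans the same log2 range. All 4 pairs overlap between the genotypes, and KO library 1 stands above the other KO libraries in Slc17a6 over Slc17a7 and in Vamp1 over Vamp2.

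Markers of the hindbrain differed between libraries of the same genotype. The 6 Hox genes of the brainstem list, which are expressed in the hindbrain and not in the forebrain, summed to 2.80, 4.05 and 6.26 CPM in WT libraries 1 to 3 and 6.04, 1.04 and 1.60 CPM in KO libraries 1 to 3. Slc6a5, the glycine transporter of hindbrain inhibitory neurons, was likewise highest in KO library 1 (52.0 CPM) and WT library 3 (50.3 CPM), and lowest in KO library 3 (26.1 CPM). The members described above as brainstem-enriched followed this order only in part. Vamp1 was highest in KO library 1 (227.6 CPM), but WT library 3 was the lowest WT library for it (201.0 CPM). Slc17a6 was highest in WT library 3 (93.2 CPM), but KO library 1 (85.5 CPM) lay below WT library 1 (89.8 CPM). For Syt2, WT library 3 was the lowest WT library (225.0 CPM). Of the 12 brainstem markers 11 were tested, 9 lower and 2 higher in KO, with a median log2 fold change of -0.42, and 0 passed the edgeR test (1 lower at an unadjusted p-value under 0.05, or 9.09% beside 3.38% of all genes). The summed brainstem list spanned 480.0 to 519.4 CPM in WT and 493.7 to 521.1 CPM in KO, most of it from the potassium channel gene Kcnc1. Kcnc1 had 323.0, 310.7 and 309.5 CPM in WT and 306.6, 328.4 and 346.9 CPM in KO, the reverse order, lowest in KO library 1 and WT library 3 and highest in KO library 3. The other 11 listed markers summed to 184.8, 169.3 and 209.9 CPM in WT and 214.5, 165.3 and 150.8 CPM in KO, so that KO libraries 2 and 3 lay below every WT library and KO library 1 above. The part of these markers in the values of Vamp1, Slc17a6 and Syt2 was not tested.

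Other lists were measured in the same way, and no listed marker was at 0 in any library. Nerve cell markers in general, led by Snhg11 and Map2, summed to between 6508 and 6857 CPM in WT and 6597 and 6770 CPM in KO. Their median log2 fold change was -0.0012 over 15 genes. KO and WT were fully separated for 3 of the 15 (20.0%, beside 14.4% of all genes). Eno2 was the 1 of the 15 at an unadjusted p-value under 0.05 (6.67%, beside 7.92% of all genes). Its log2 fold change was 0.093, with every KO library above every WT library, as in 7.46% of all genes. Markers of cortical and hippocampal excitatory neurons, where Slc17a7 is the transporter in use, had a median of -0.01 over 13 genes, with 5 higher and 8 lower in KO. Thalamic markers had a median of -0.02 over 10 genes, of which 2 had an unadjusted p-value under 0.05 (20.0%, beside 7.92% of all genes). These were Gbx2, higher in KO (log2 fold change 0.76, at 0.824 to 2.13 CPM over the 6 libraries, with the groups overlapping), and Rora, lower in KO (-0.11). Gbx2 was at 0.48 when KO library 3 was left out, with an unadjusted p of 0.0853 in edgeR's quasi-likelihood test. Cerebellar markers had a median of -0.02 over 11 genes. The striatal list had a median of -0.04 over 9 genes, with 2 lower at an unadjusted p-value under 0.05, Penk among them (22.2%, beside 3.38% of all genes), and the inhibitory neuron list -0.00031 over 9 genes.

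Markers of cells that are not neurons were read in the same way. The 8 choroid plexus markers were all higher in KO, with a median log2 fold change of 0.18 and summed levels of 325.1 to 380.3 CPM in WT and 384.1 to 459.8 CPM in KO. Of these 8, 3 (Ttr, Kl and Aqp1) had an unadjusted p-value under 0.05, or 37.5% beside 4.54% of all genes higher in KO. Oligodendrocyte markers had a median of -0.10 over 10 genes, and summed to 4374 to 4804 CPM in WT and 3781 to 4502 CPM in KO, with 2 of 10, Ermn among them, lower at an unadjusted p-value under 0.05, beside 3.38% of all genes.

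Astrocyte markers went both ways around a median of -0.01 over 9 genes. At an unadjusted p-value under 0.05 were 3 of the 9 (33.3%, beside 7.92% of all genes): Gfap (log2 fold change 0.45) and Aldh1l1 (0.18) were higher and Aqp4 (-0.17) lower in KO. Gfap, the intermediate filament of astrocytes, had 114.7, 131.3 and 133.1 CPM in WT and 140.2, 127.7 and 248.0 CPM in KO. KO library 3 stood far above the rest, and without it the log2 fold change of Gfap was 0.08. Microglia markers had a median of 0.0094 over 9 genes, with 5 higher and 4 lower in KO. The 1 of these 9 at an unadjusted p-value under 0.05 (11.1%, beside 7.92% of all genes) was P2ry12, a purine receptor of microglia, at -0.34. It lay below WT in every KO library, as in 6.97% of all genes. Endothelial markers had a median of 0.01 over 8 genes, none at an unadjusted p-value under 0.05. No marker of any list passed the edgeR test adjusted over all genes. Of the 122 markers tested, 15 (12.3%) had an unadjusted p-value under 0.05, beside 7.92% of all genes. DESeq2 called 3 markers, among them P2ry12 (adjusted p = 0.0493) and Ttr (0.0475), where it called 0.281% of all the genes it adjusted. With 1 library left out at a time, Penk, Ttr, P2ry12 and Aldh1l1 stayed at an unadjusted p-value under 0.05 in all 6 fits. The other markers named at that level (Eno2, Gbx2, Rora, Kl, Aqp1, Ermn, Gfap and Aqp4) did not in at least 1. With WT library 3 and KO library 1 left out together, Ttr, P2ry12 and Aldh1l1 stayed under 0.05. Penk did not, at a log2 fold change of -0.14 (unadjusted p 0.0956, edgeR's quasi-likelihood test). The part of these cells in the values of Snap25 and Slc17a7 was not tested.

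The rest of the vesicle cycle was read from 84 genes in 4 lists, all of them tested. None passed (edgeR's quasi-likelihood test; DESeq2 and limma-voom also called 0), the smallest adjusted p-value was 0.576, and 11 of 84 (13.1%) had an unadjusted p-value under 0.05, beside 7.92% of all genes tested. Of these 11, 9 were higher (10.7% of the 84, beside 4.54% of all genes) and 2 lower in KO (2.38%, beside 3.38%). The median log2 fold change of the 84 genes was 0.016, and KO and WT libraries were fully separated for 15 genes (17.9%), beside 14.4% of all genes. With WT library 3 and KO library 1 left out, 0 of the 84 passed in edgeR, where fewer libraries give the test less power.

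Among 35 genes of SNARE assembly, priming and the active zone, 17 were higher and 18 lower in KO, with a median log2 fold change of -0.0043. The priming factor Unc13a averaged 386.5 ± 11.6 CPM in WT against 408.3 ± 28.3 CPM in KO (SD, n = 3). The complexins clamp and assist fusion: Cplx1 averaged 484.6 ± 12.4 CPM in WT and 468.8 ± 17.7 CPM in KO, and Cplx2 882.9 ± 65.6 and 829.8 ± 26.8 CPM. Rims1, an active zone scaffold, averaged 197.0 ± 3.57 and 205.0 ± 12.3 CPM. Of the 35 genes, 4 had an unadjusted p-value under 0.05 (11.4%, beside 7.92% of all genes). The genes of this list at an unadjusted p-value under 0.05 were Rab27b (log2 fold change -0.25, SE 0.068), a small GTPase of secretory vesicles, Syt5 (0.18, SE 0.055), the scaffold Bsn (0.15, SE 0.051) and Ppfia3 (0.10, SE 0.042), a liprin. Their edgeR adjusted p-values lay between 0.576 and 0.614.

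Among 21 further proteins of the vesicle membrane, 11 were higher and 10 lower, with a median log2 fold change of 0.012. Synaptophysin (Syp), a major integral protein of the vesicle, averaged 777.9 ± 10.9 CPM in WT against 784.3 ± 13.7 CPM in KO (SD, n = 3), and Sv2a, a vesicle glycoprotein, 457.7 ± 11.9 and 456.7 ± 8.60 CPM. Of the 21 genes, 1 had an unadjusted p-value under 0.05 (4.76%, beside 7.92% of all genes). This was Atp6v0c, the proteolipid of the proton pump that energises transmitter uptake. It averaged 151.4 ± 10.01 CPM in WT and 172.0 ± 1.70 CPM in KO (log2 fold change 0.18, SE 0.051, edgeR adjusted p = 0.576). Its KO libraries all lay above its WT libraries, as in 7.46% of all genes.

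The 5 other vesicular transporters had 4 higher and 1 lower in KO, with a median log2 fold change of 0.13. Of all 21237 genes tested, 10630 were higher and 10607 lower. Among the 5, Slc32a1 alone had an unadjusted p-value under 0.05 (20.0%, beside 7.92% of all genes). Slc32a1 (VGAT), which fills the vesicles of inhibitory neurons, had 75.0, 63.9 and 74.3 CPM in WT and 87.1, 81.3 and 80.8 CPM in KO. Every KO library lay above every WT library, as in 7.46% of all genes. The log2 fold change was 0.23 (SE 0.065, 95% interval 0.083 to 0.37, edgeR adjusted p = 0.576). The inhibitory neuron markers Gad1, Gad2, Pvalb and others summed to between 789.6 and 877.6 CPM in WT and between 804.1 and 888.7 CPM in KO, which overlapped. Slc17a8 (VGLUT3), the scarcest glutamate transporter, averaged 4.04 ± 0.385 CPM in WT against 4.56 ± 0.270 CPM in KO (SD, n = 3).

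Among 23 genes of vesicle recycling, 18 were higher and 5 lower, beside 10630 higher and 10607 lower of the 21237 genes tested. The median log2 fold change was 0.037. KO and WT libraries were fully separated for 7 of the 23 (30.4%, beside 14.4% of all genes). An unadjusted p-value under 0.05 was found for 5 of the 23 (21.7%, beside 7.92% of all genes). Those at an unadjusted p-value under 0.05 were the clathrin adaptor subunits Ap2s1 (log2 fold change 0.18, SE 0.051) and Ap2a2 (0.13, SE 0.039), Pacsin1 (0.12, SE 0.042), Bin1 (0.09, SE 0.041) and the dynamin Dnm3 (-0.13, SE 0.040). Their edgeR adjusted p-values lay between 0.576 and 0.622. Bin1 is also expressed by oligodendrocytes, whose markers are given above.

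**Figure D4:**
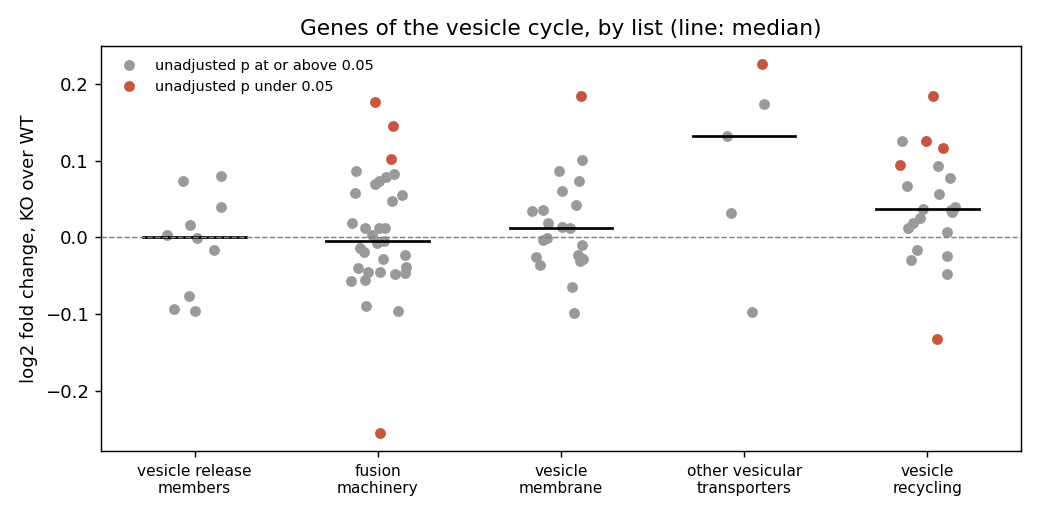
Log2 fold change of KO over WT for the 10 members and 81 of the 84 genes of the 4 pathway lists, with the median of the whole list as a line and genes at an unadjusted p-value under 0.05 in red. Most genes lie close to 0 and no gene passed the test adjusted over all genes.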

How the data were processed

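Each library came as a deposited table of raw counts per gene, laid out as STAR writes it; the submitters' processing notes name cutadapt 1.9.1 and STAR 2.7.0f, and the genome build and annotation are not given in the sources used here. The 55450 gene identifiers are exactly those of GENCODE M21 (GRCm38), from which names, positions and lengths were taken. The 4 rows that name no gene, between 57.7% and 60.2% of reads, were left out. The deposited counts on the last strand column held 94.6% to 94.8% of both stranded columns and were used (80% was required). Counts were filtered (filterByExpr), scaled with TMM and tested with edgeR 4.0.16's quasi-likelihood test in R 4.3.3, with genotype as the sole factor and Benjamini-Hochberg adjustment over 21237 genes. The SE is the log2 fold change divided by the square root of F, and 95% intervals use the test's t quantile. Alternatives used DESeq2 1.42.0 and limma 3.58.1. A check for duplicate libraries found none: counts of each replicate pair differed by more than counting error (chi-square per degree of freedom 4.39 to 9.35).

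The 10 members and all lists were chosen with earlier results of these data known. Named by rule were the members, 8 pathway genes (Unc13a, Cplx1, Cplx2, Rims1, Syp, Sv2a, Slc17a8, Slc32a1), up to 8 genes per pathway list with the smallest unadjusted p-value under 0.05, the 3 genes most alike to each of 4 members, and up to 3 markers per list by level. The values of 6 genes and of 1 pair ratio are not reported here. They still enter the fits, list counts and adjustment over 5 pairs. Other genes were chosen after their values were seen. The p-values of single genes set the difference between genotypes against the spread among these 6 libraries, estimated with information shared across genes. Those of the pair ratios come from exact permutation of the group labels.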

Additional observations from a re-analysis of the deposited data

How the results depend on the processing

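Over 16 alternatives, 0 of the 10 members passed in any, and of 160 recomputed member fold changes 147 kept their direction and 13 changed sign, each for a gene near 0. Leaving out WT library 3 and KO library 1 together was chosen after seeing the data. Vamp1 turned to 0.0034 with unstranded counts and 0.0050 without a filter. Vamp2 turned to -0.0077 with total counts, -0.0025 with a mean count of at least 50 and -0.0082 with protein-coding genes alone. Leaving out 1 library at a time gave -0.0095 to 0.046 for Syn2, -0.044 to 0.0066 for Syt1, -0.024 to 0.12 for Stx1a, -0.093 to 0.051 for Vamp1 and -0.031 to 0.039 for Vamp2. Without a change of sign, the ranges were -0.16 to -0.044 for Slc17a6, -0.12 to -0.052 for Snap25, 0.029 to 0.12 for Syn1, -0.099 to -0.040 for Syt2 and 0.064 to 0.099 for Slc17a7. The pair ratios then ranged from -0.26 to -0.12 (Slc17a6 over Slc17a7), 0.030 to 0.11 (Syn1 over Syn2), -0.12 to 0.051 (Vamp1 over Vamp2) and -0.097 to 0.0037 (Syt2 over Syt1).

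Of all genes, 298 passed without a filter, 25 in DESeq2, 1 among protein-coding genes and 2 to 5 with 1 library left out. Without a filter 5 of the 84 pathway genes passed, among them Atp6v0c, Bsn, Rab27b and Slc32a1, beside 298 of 37245 genes. In every other alternative 0 pathway genes passed. Of the markers, 5 passed without a filter, among them Gfap, P2ry12, Penk and Ttr, again beside 298 of 37245 genes. In DESeq2 3 markers passed, beside 0.281% of the genes it adjusted, and in the other alternatives 0. The cause was not tested. With the replicate block 4 genes passed, 0 of them members, and the log2 fold change of Snap25 was -0.094. Same-numbered KO and WT libraries deviated from their group means with correlations of 0.040, -0.031 and -0.058, so the numbers gave no sign of pairing.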

Other observations

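The genes whose log2 CPM ran most alike to a member over the 6 libraries were sought among 17291 genes with a mean of at least 1 CPM. For Slc17a7 they were Gal3st3, Fiz1 and Higd1b (Pearson r 0.997, 0.995 and 0.994). For Slc17a6 they were Emb, Vcpkmt and Uprt (r 0.986, 0.984 and 0.982). For Syt1 they were the features B230206I08Rik and Gm13868 (r 0.984 and 0.981) and Stmn1 (r 0.983). For Syt2 they were Nyx, Cdc42ep2 and Fnbp4 (r 0.992, 0.986 and 0.982). With 6 libraries scaled together, and so many genes searched, such values are a description only. Among the members themselves, Syn2 and Stx1a ran most alike (r 0.953) and Syt2 and Slc17a7 least (r -0.843), over the same 6 libraries.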
